A study of Rattus norvegicus with 23 samples.

Results

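The genes described here are the type I interferon response genes, a set of 54 names that stand for 50 rat genes once old and new names are joined. Members were taken by gene name from the scanner files, with case and the suffix for predicted genes ignored, and each gene was read from its brightest probe. This found 38 genes on 48 probes, of which 35 passed the filter on dim probes and were tested among 20760 features in all. Ifit3, Ifitm3 and Parp12 were found but were too dim to be tested. A further 7 genes (Cmpk2, Dhx58, Eif2ak2, Ifi27, Ifih1, Parp14 and Rsad2) are on the array under older names and are given separately. Irf8, Oas2, Xaf1, Sp100 and Ifnar2 were not found by name and are not analysed here.

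Peripheral blood mononuclear cells (PBMC), the lymphocytes and monocytes that a Ficoll density gradient separates from blood, were taken from Wistar rat pups at 21 days of age. The groups were 5 male pups of calorie-restricted (CR) dams, 6 male pups of control dams, 6 female pups of CR dams and 6 female pups of control dams. CR dams received 20% fewer calories while they suckled the pups, control dams ate chow freely, and the labels name no other treatment. On each of 23 arrays the RNA of 1 pup was labelled with Cy5 and set against a Cy3 pool of all samples, with no dye swap, so a value is the log2 ratio of that pup to the pool. The labels name 5 CR dams and 11 control dams but tie no pup to a litter, so littermates may count here as separate samples and p-values may be too small.

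Type I interferons are cytokines that cells release when they sense viral nucleic acid. They bind a receptor made of Ifnar1 and Ifnar2, and the kinases behind it phosphorylate Stat2, which joins Irf9 in the complex ISGF3. That complex binds the interferon-stimulated response element (ISRE) in the promoters of its target genes, which include antiviral proteins such as Mx1 and Isg15 and also Stat2, Irf7 and Irf9 themselves. Irf7 in turn drives interferon genes, and plasmacytoid dendritic cells hold much of it in blood. Interferon gamma acts through another element, GAS, and its targets overlap with these genes.

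Promoters are shown for 5 members: Stat2 and Bst2, the lowest in p for diet with the sexes averaged, and Rsad2, Irf7 and Isg20, which varied with red cell markers. Each runs 5′ to 3′ from 250 bases before to 50 bases after the RefSeq gene start on the build GRCr8, and capitals mark the ISRE core.
Stat2, chr7:1286840-1287139, plus strand: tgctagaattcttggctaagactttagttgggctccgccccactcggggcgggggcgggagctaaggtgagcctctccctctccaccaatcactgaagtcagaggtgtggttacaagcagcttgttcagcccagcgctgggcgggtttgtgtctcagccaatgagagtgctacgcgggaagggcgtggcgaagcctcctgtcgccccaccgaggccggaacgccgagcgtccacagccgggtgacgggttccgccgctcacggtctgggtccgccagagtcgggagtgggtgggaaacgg
Bst2, chr16:18254918-18255217, minus strand: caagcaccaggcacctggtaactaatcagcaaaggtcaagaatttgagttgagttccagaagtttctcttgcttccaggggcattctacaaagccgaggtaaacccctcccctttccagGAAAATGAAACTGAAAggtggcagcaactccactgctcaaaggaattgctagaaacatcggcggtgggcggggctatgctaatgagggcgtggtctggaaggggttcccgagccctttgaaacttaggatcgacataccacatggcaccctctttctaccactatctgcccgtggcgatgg
Rsad2, chr6:48788071-48788370, minus strand: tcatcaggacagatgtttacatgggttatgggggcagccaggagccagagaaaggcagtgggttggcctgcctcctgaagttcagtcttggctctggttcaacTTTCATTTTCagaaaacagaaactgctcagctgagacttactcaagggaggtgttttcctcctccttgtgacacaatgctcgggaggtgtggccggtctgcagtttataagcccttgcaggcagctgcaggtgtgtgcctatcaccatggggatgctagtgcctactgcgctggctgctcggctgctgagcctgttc
Irf7, chr1:205799974-205800273, minus strand: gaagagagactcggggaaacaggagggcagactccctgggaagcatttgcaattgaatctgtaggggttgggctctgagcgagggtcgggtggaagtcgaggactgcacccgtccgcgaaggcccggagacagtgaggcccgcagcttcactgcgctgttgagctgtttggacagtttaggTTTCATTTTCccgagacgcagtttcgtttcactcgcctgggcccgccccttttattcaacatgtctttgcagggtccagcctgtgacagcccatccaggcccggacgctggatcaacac
Isg20, chr1:142239809-142240108, plus strand: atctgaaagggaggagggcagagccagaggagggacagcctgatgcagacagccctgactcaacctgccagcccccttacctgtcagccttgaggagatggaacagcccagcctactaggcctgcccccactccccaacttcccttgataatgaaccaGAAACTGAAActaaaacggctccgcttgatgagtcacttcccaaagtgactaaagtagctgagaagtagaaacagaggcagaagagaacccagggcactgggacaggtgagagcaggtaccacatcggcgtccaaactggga
The ISRE core was searched as GAAANNGAAA and, for the other strand, TTTCNNTTTC. Stat2 has no such letters in this window. Bst2 has a pair of overlapping cores, at 131 to 122 and 125 to 116 bases before the start. The core of Rsad2 lies 147 to 138 bases before the start, that of Irf7 69 to 60 and that of Isg20 92 to 83. Of the other genes that varied with red cell markers, Cmpk2 has no core in its window, and no RefSeq promoter was found by name for Ifit1.

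A RefSeq promoter was found by name for 38 of the 50 genes, and a gene listed under another symbol would be missed. Of these 38, 22 (57.9%) held the core, against 1312 of all 33469 promoters (3.92%). The GAS motif, searched as TTCNNNGAA, was in 12 of the 38 (31.6%), against 2970 of all promoters (8.87%). In Bst2 a GAS match ends within the first ISRE core. Among the 25 tested genes with a promoter, 13 held the core. Of those 13, 6 were lower in CR pups when the sexes were averaged, with a median log2 difference of 0.01, and of the 12 without it 11 were lower, with a median of -0.09. In males 4 of 13 with the core and 9 of 12 without were lower (medians 0.03 and -0.07). In females the counts were closer, at 9 of 13 and 10 of 12 (medians -0.05 and -0.12). A match is a description of letters and not of binding, and this split was not tested.

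The diet comparison asked how restriction of the dam in lactation relates to these genes in her pups. No member passed the threshold of an adjusted p under 0.05 (limma, Benjamini-Hochberg over all 20760 features) in either sex or in their mean, nor did any feature of the array (0% called in each). At an unadjusted p under 0.05 there were 4 of 35 members in males, where 7.19% of all features reached it. In females there were 3, where the share over all features was 4.65%, and for the mean of the sexes 2, where it was 7.36%. In females 27 of the 35 members were lower in CR pups, with a median log2 difference of -0.07. In males 20 were lower, with a median of -0.02, and for the mean of the sexes 25 were lower, with a median of -0.04. The medians over all features were 0.003 in females, -0.007 in males and 0.001 for the mean. These counts moved with the processing. Over the alternatives run on the same 35 members, the number lower was 20 (scale normalization) to 28 in females, 17 (the scanner software's log ratio) to 31 (median centring) in males and 21 (without CR female 3) to 32 (median centring) for the mean. The male median was 0.02 by the scanner software's log ratio. With slides as a block, 10 of the 35 members no longer had the same sign in males and 0 of 35 in females.

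With the 7 genes under older names added, which was chosen after the data were seen, 33 of 42 were lower in females, 22 in males and 27 for the mean, and none was called. Genes of 1 response are not independent, so these counts are a description. Because whole PBMC were measured, fewer cells of a type and less RNA per cell cannot be told apart.

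**Figure D1:**
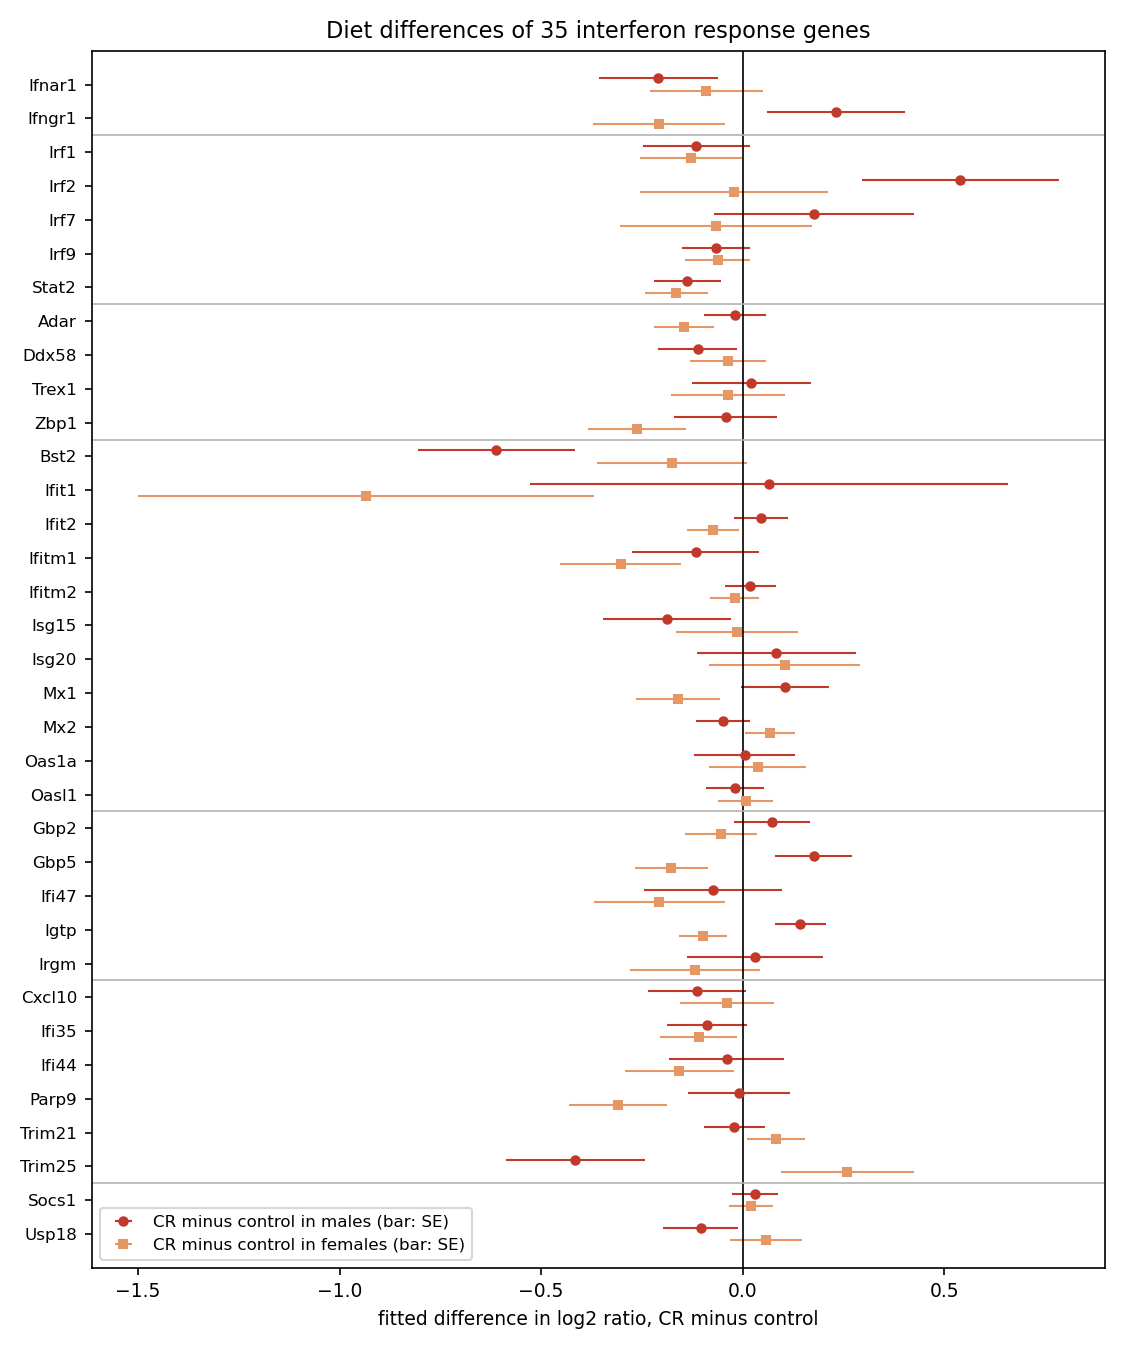
Fitted log2 difference, CR minus control, of each of the 35 tested members, with bars of 1 SE; males are red circles (5 CR and 6 control pups), females orange squares (6 and 6), and lines separate the roles. Female values lie left of 0 for 27 genes and male values for 20, and Ifit1 has the widest bars.

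Of the receptor genes, Ifnar1, a chain of the type I receptor, was lower by a log2 difference of 0.21 ± 0.15 (SE) in CR males. A second Ifnar1 probe gave 0.04 ± 0.09 in males, so the probes disagree in sign. Ifngr1, the ligand-binding chain of the interferon gamma receptor, was higher by 0.23 ± 0.17 in CR males and differed by -0.21 ± 0.16 in CR females. Neither gene had an unadjusted p under 0.05 in any comparison. With slides as a block Ifngr1 was at 0.36 ± 0.15 in males (limma, unadjusted p 0.0273, adjusted p 0.561). Its difference between the sexes was then 0.57 ± 0.20 (unadjusted p 0.0113, adjusted p 0.702). Other members crossed 0.05 with this block too: Gbp5 in males fell under it (limma, unadjusted p 0.0226) and Igtp in males rose above it (0.0849). The share of all features at that level is not given for this block.

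Stat2, the subunit that brings the activation domain to ISGF3, was lower in CR pups of both sexes. Its log2 ratios to the pool were -0.09, 0.14, -0.06, -0.09 and -0.20 in CR males, against a lowest of -0.17, a median of 0.03 and a highest of 0.28 in control males. They were -0.12, 0.02 and 0.18 (lowest, median and highest) in CR females, against 0.02, 0.20 and 0.35 in control females. In both sexes the groups overlapped, and 4 of the 5 CR males lay below 0. The fitted difference was -0.14 ± 0.08 in males, -0.17 ± 0.08 in females (unadjusted p 0.0467) and -0.15 ± 0.06 over both sexes (limma, unadjusted p 0.0142, adjusted p 0.589). That mean is 0.901-fold, with a 95% confidence interval of -0.27 to -0.03 on the log2 scale. Within slides Stat2 was lower in CR on 3 of 4 slides in males and 5 of 6 in females, and without any 1 array the mean ran from -0.18 to -0.13. By the scanner software's own log ratio the mean was -0.41. The Stat2 probe is dim (median Cy5 intensity 135), and the added offset of 50 narrows the folds of dim probes.

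B cell markers were lower too: 10 of 15 listed were measured, and averaged over sex all 10 were lower in CR pups, with a median of -0.39. The mean of that list per pup ran from -0.62 to 0.17 in CR males, -0.09 to 0.69 in control males, -0.23 to 0.31 in CR females and -0.03 to 0.79 in control females. Within groups, Stat2 correlated with it at r 0.564 and rho 0.541 over 23 pups (adjusted p 0.230 and 0.250, permutation). The next largest r of Stat2 were -0.528 with natural killer cell markers and 0.449 with monocyte markers. Averaged over sex, 7 of 8 natural killer cell markers were higher in CR pups (median 0.13), as were 6 of 12 monocyte markers (median 0.003). The part of these lists in the result was not tested.

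Including Stat2, 5 of 5 transcription factors tested were lower in CR females (median -0.07) and 3 of 5 in CR males (median -0.07), or 4 of 5 in males with slides as a block (median -0.01). Irf9, the DNA-binding subunit of ISGF3, was at -0.03, 0.38, 0.11, -0.11 and 0.12 in CR males, against 0.01, 0.14 and 0.39 (lowest, median and highest) in control males. It was at -0.04, 0.09 and 0.33 in CR females, against 0.07, 0.20 and 0.30 in control females. The groups overlapped almost fully, and Irf9 differed by -0.07 ± 0.09 in males, -0.06 ± 0.08 in females and -0.06 ± 0.06 over both sexes (limma, adjusted p 0.899, 0.996 and 0.884). Irf1, an activator induced by both kinds of interferon, was at -0.12 ± 0.13 in males and -0.13 ± 0.13 in females.

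Irf2, which binds the same sites as Irf1 and mostly represses, was at 1.21, -0.65, 0.81, -0.07 and 0.14 in CR males, against -0.54, -0.23 and -0.01 in control males. In CR females it was at -0.77, -0.09 and 0.14, against -0.61, -0.21 and 0.44 in control females. CR males 1 and 3 stood far above every other pup, while CR male 2 lay below all control males. The difference was 0.54 ± 0.24 in males (limma, unadjusted p 0.0375, adjusted p 0.680) and -0.02 ± 0.23 in females. Without CR male 1 the male difference was 0.31, and it ran up to 0.78 without CR male 2. Over 23 pups, on deviations from group means, Irf2 went against the mean of the 3 measured markers of conventional dendritic cells at r -0.666 and rho -0.684 (adjusted p 0.161 and 0.0756, permutation) and went with platelet markers at r 0.510 and rho 0.530 (adjusted p 0.193 and 0.255). Of 8 listed dendritic cell markers only Batf3, Cd1d1 and Ccr7 were measured. Flt3, Clec9a and Itgax were not found by name, and Xcr1 and Zbtb46 were too dim. The 3 measured genes may therefore not stand for these cells. Their mean per pup ran from -0.32 to 0.32 in CR males and -0.07 to 0.11 in control males. In females it ran from -0.46 to 0.15 (CR) and -0.10 to 0.18 (control). The part of these markers in the result was not tested.

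Irf7, the factor that amplifies interferon production, was at 0.25, 0.27, 0.16, -0.04 and -0.30 in CR males, against -0.46, -0.18 and 0.33 in control males. It was at -0.40, 0.08 and 1.45 in CR females, against -0.23, 0.29 and 0.93 in control females. The highest values belonged to CR female 5 and control female 4, and the groups overlapped. Irf7 differed by 0.18 ± 0.25 in males, -0.07 ± 0.24 in females and 0.06 ± 0.17 over both sexes (limma, adjusted p 0.912, 0.997 and 0.976). These signs were not stable: with slides as a block the male value was -0.01, and without CR female 5 the female value was -0.32 and the mean -0.07.

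Of the genes that sense, edit or degrade nucleic acid, 4 of 4 tested were lower in CR females and 3 of 4 in CR males. The medians were -0.09 and -0.03. With slides as a block only Ddx58 was lower in CR males (1 of 4, median 0.02). Zbp1, a sensor of left-handed nucleic acid, was at -0.17, 0.15 and 0.29 in CR females, against 0.27, 0.39 and 0.54 in control females. It was at -0.17, 0.45, -0.18, 0.10 and 0.27 in CR males, against -0.24, 0.14 and 0.56 in control males. In females the highest CR pup lay just above the lowest control pup, and in males they overlapped fully. The female difference was -0.26 ± 0.12 (limma, unadjusted p 0.0414, adjusted p 0.995), and the male difference was -0.04 ± 0.13. Adar, which edits adenosine in double-stranded RNA, was at -0.15 ± 0.07 in females and -0.02 ± 0.08 in males. Ddx58, which encodes the RNA helicase RIG-I, was at -0.04 ± 0.09 in females and -0.11 ± 0.10 in males. Trex1, an exonuclease that clears DNA from the cytosol, was at -0.04 ± 0.14 in females and 0.02 ± 0.15 in males, and its 2 probes did not vary together (r -0.041 within groups).

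Among 11 antiviral effectors tested, 7 were lower in CR females and 5 in CR males, with medians of -0.02 and 0.01. Bst2, the membrane protein tetherin, which holds budding virions on the cell, had the smallest p of all members. Its log2 ratios were -0.66, -0.47, -0.63, 0.12 and 0.08 in CR males, against -0.44, 0.39 and 0.84 (lowest, median and highest) in control males. They were -0.14, -0.08 and 0.24 in CR females, against -0.46, 0.27 and 0.53 in control females. CR males 1, 2 and 3 lay below every control male, and the other two lay among them. The difference was -0.61 ± 0.20 in males (limma, unadjusted p 0.00476, adjusted p 0.637), which is 0.655-fold with a 95% confidence interval of -1.01 to -0.21 on the log2 scale. In females it was -0.18 ± 0.19, and for the mean of the sexes -0.39 ± 0.14 (unadjusted p 0.00783, adjusted p 0.589).

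Bst2 was lower in CR males on all 4 slides that hold both groups, by -1.31 to -0.22, and in CR females on 4 of 6. A second probe, which followed the first at r 0.928, gave -0.37 ± 0.15 in males and -0.07 ± 0.14 in females. Without any 1 array the male difference ran from -0.76 to -0.50. By the scanner software's log ratio it was -1.11, and over all settings the adjusted p ran from 0.0897 to 0.999. Bst2 and Irf7 are also used as markers of plasmacytoid dendritic cells; the 7 other measured markers of these cells had a median difference of -0.01 in males and 0.01 in females.

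Isg15, a ubiquitin-like protein that is joined to others after interferon, was at -0.40, 0.06, -0.41, 0.06 and -0.13 in CR males, against -0.52, 0.03 and 0.58 in control males. It was at -0.18, 0.03 and 0.31 in CR females, against -0.38, 0.05 and 0.34 in control females. No CR male exceeded 0.06, but the lowest pup was a control male, and the groups overlapped in both sexes. Isg15 differed by -0.19 ± 0.16 in males, -0.01 ± 0.15 in females and -0.10 ± 0.11 over both sexes (limma, adjusted p 0.834, 0.997 and 0.910).

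Mx1, a dynamin-like GTPase that blocks viral ribonucleoproteins, was at 0.14, 0.19, -0.16, -0.004 and -0.08 in CR males, against -0.41, -0.07 and 0.33 in control males. It was at -0.34, -0.12 and 0.01 in CR females, against -0.15, 0.01 and 0.27 in control females. The groups overlapped in both sexes. Mx1 differed by 0.11 ± 0.11 in males, -0.16 ± 0.10 in females and -0.03 ± 0.08 over both sexes (limma, adjusted p 0.866, 0.995 and 0.972). Within slides it was lower in CR on 1 of 4 slides in males and 5 of 6 in females.

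Ifitm1, which keeps viruses from fusing with membranes, was at -0.12 ± 0.16 in males and -0.30 ± 0.15 in females. The other effectors tested (Ifit1, Ifit2, Ifitm2, Isg20, Mx2, Oas1a and Oasl1) had unadjusted p-values above 0.05 in every comparison. Oasl1 was above background on 7 arrays and Mx2 on 13, so their small differences say little.

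**Figure D2:**
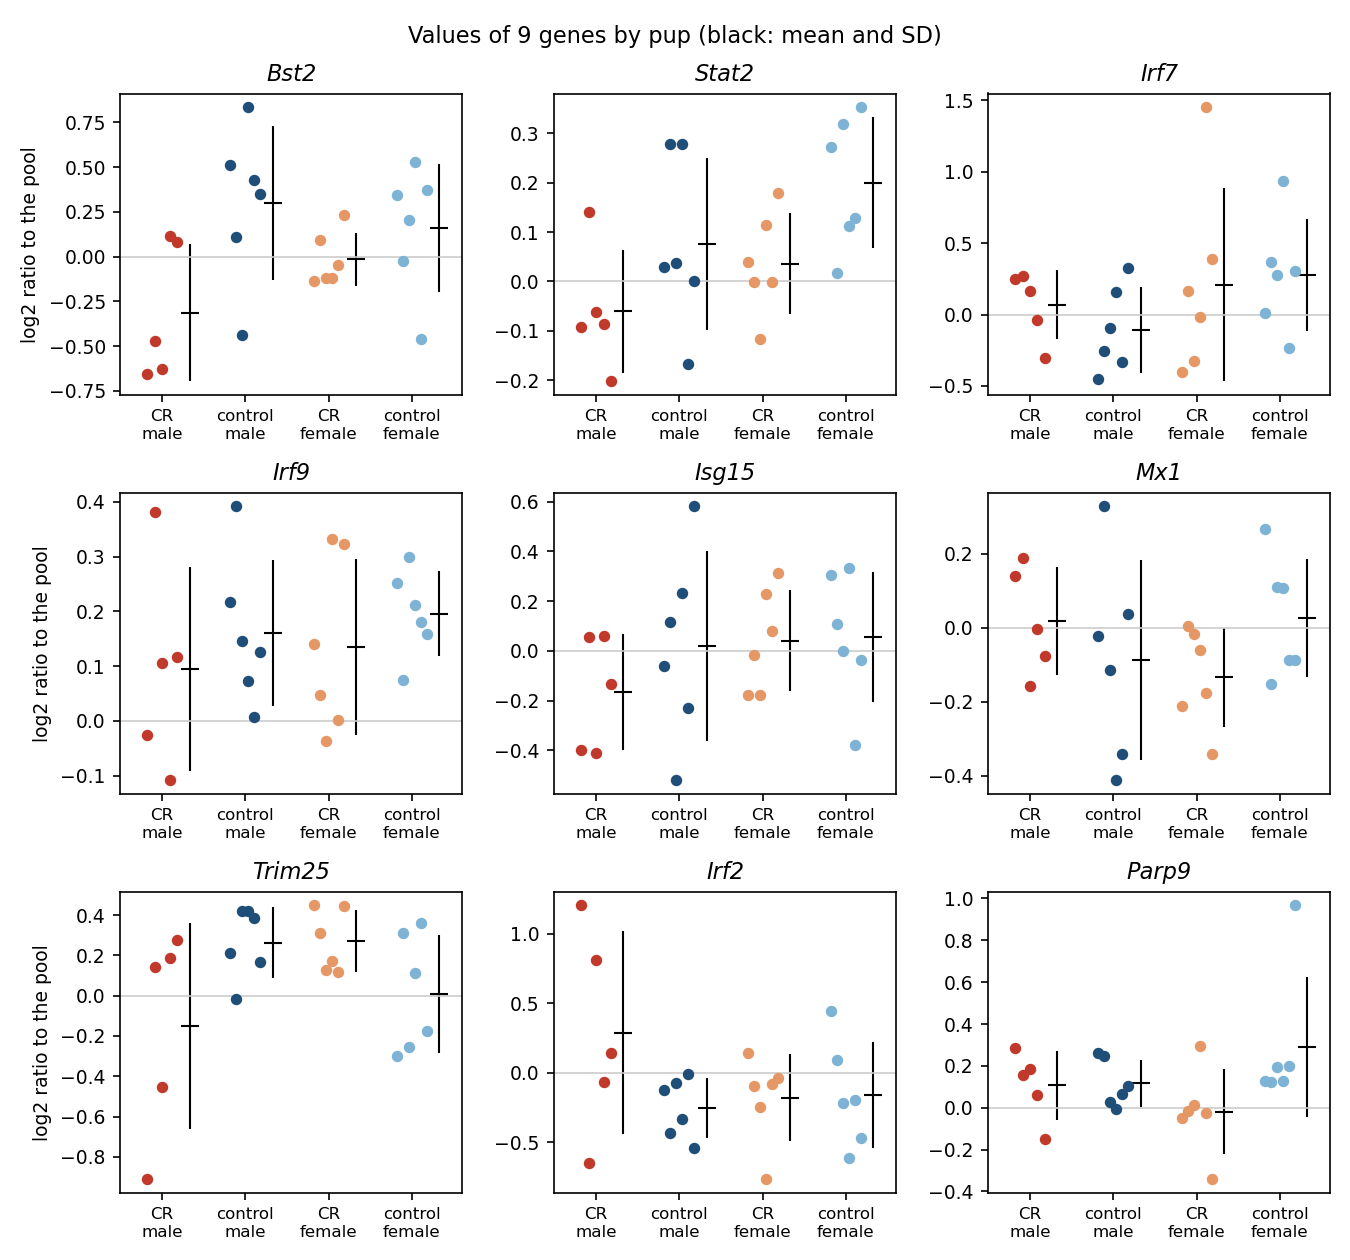
Log2 ratio to the pool in each pup for 9 members, with the mean and SD of each group in black; groups run CR male (n = 5), control male (6), CR female (6) and control female (6). Bst2 averaged -0.31 ± 0.38 in CR males and 0.30 ± 0.43 in control males (SD), and the top Irf7 and Parp9 points are CR female 5 (1.45) and control female 6 (0.97).

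The interferon-inducible GTPases, which guard the membranes around intracellular microbes and respond mainly to interferon gamma, had diet differences of opposite sign in the sexes for 4 of 5 genes. All 5 were lower in CR females (median -0.12), and 4 of 5 were higher in CR males (median 0.07). With slides as a block Irgm turned to -0.06 in males, which left 3 of 5 higher (median 0.03). The male diet difference exceeded the female one for 5 of 5 (median 0.15), and none passed the adjusted test of that difference. Over all 35 members, 3 had an unadjusted p under 0.05 for the difference between the sexes, where 4.67% of all features did and 0% were called.

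Igtp was at 0.09, 0.15, 0.01, 0.04 and -0.16 in CR males, against -0.23, -0.11 and -0.003 (lowest, median and highest) in control males. It was at -0.14, -0.05 and 0.001 in CR females, against -0.13, 0.08 and 0.12 in control females. In males, 4 of 5 CR pups lay above every control pup. The diet difference was 0.14 ± 0.06 in males (limma, unadjusted p 0.0325, adjusted p 0.675) and -0.10 ± 0.06 in females. The difference between the sexes was 0.24 ± 0.09 (unadjusted p 0.0109, adjusted p 0.936). Under median centring of the arrays the male value was 0.03, and by the scanner software's log ratio it was 0.42. With slides as a block it was 0.118 ± 0.065 (limma, unadjusted p 0.0849, adjusted p 0.646).

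Gbp5, a guanylate-binding protein, was at 0.44, 0.03, 0.37, -0.03 and -0.08 in CR males, against -0.16, -0.04 and 0.10 in control males. It was at -0.34, -0.13 and 0.01 in CR females, against -0.18, 0.06 and 0.22 in control females. CR males 1 and 3 were again apart, as for Irf2. The difference between the sexes was 0.35 ± 0.13 (limma, unadjusted p 0.0131, adjusted p 0.936), and 0.28 without CR male 1. Monocyte markers had the same signs, with 11 of 12 higher in CR males (median 0.13) and 11 of 12 lower in CR females (median -0.17). So had red cell markers (7 of 8 higher in CR males, 7 of 8 lower in CR females) and T cell markers (8 of 13 and 8 of 13). Within groups, r with monocyte markers was 0.059 for Gbp5 and 0.399 for Igtp. With red cell markers it was 0.198 and 0.231, and with T cell markers 0.251 and 0.258. Platelet and conventional dendritic cell markers were mostly lower in CR pups of both sexes. With platelet markers r was 0.326 for Gbp5 and -0.27 for Igtp, and with conventional dendritic cell markers -0.136 and 0.327. The part of these lists in the result was not tested.

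Of 6 other induced proteins, all were lower in CR males, with a median of -0.06, and 4 were lower in CR females, with a median of -0.07. With slides as a block 4 of 6 were lower in CR males, since Parp9 was at 0.009 and Ifi44 at 0.027. Trim25, the ubiquitin ligase that activates RIG-I, was read from a bright probe (median Cy5 intensity 4281). It was at -0.91, 0.14, -0.45, 0.19 and 0.28 in CR males, against -0.02, 0.30 and 0.42 in control males. It was at 0.12, 0.24 and 0.45 in CR females, against -0.30, -0.03 and 0.36 in control females. CR males 1 and 3 again stood apart, this time below every other pup. Trim25 differed by -0.42 ± 0.17 in males (limma, unadjusted p 0.0245, adjusted p 0.656) and by 0.26 ± 0.16 in females. The difference between the sexes was -0.68 ± 0.24 (unadjusted p 0.0094, adjusted p 0.936). Without CR male 1 these values were -0.23 in males and -0.49 between the sexes.

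Parp9, an ADP-ribosyltransferase family member that works with a ubiquitin ligase, was at -0.34, -0.02 and 0.30 in CR females, against 0.12, 0.16 and 0.97 in control females. It was at 0.28, 0.16, 0.19, 0.06 and -0.15 in CR males, against -0.01, 0.09 and 0.26 in control males. Control female 6 held the value of 0.97, and 1 CR female lay above the other control females. The female difference was -0.31 ± 0.12 (limma, unadjusted p 0.0181, adjusted p 0.995), and -0.17 without control female 6. In males it was -0.01 ± 0.13. Of the negative regulators, Socs1, an inhibitor of the receptor kinases, was at 0.03 ± 0.06 in males and 0.02 ± 0.06 in females. Usp18, which removes Isg15 and dampens the receptor, was at -0.10 ± 0.09 in males and 0.06 ± 0.09 in females, and its 2 probes did not vary together (r 0.074).

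Between the sexes, averaged over diets, 22 of 35 members were lower in males, with a median log2 difference of -0.03 (males minus females). No member was called, where 0.0578% of all features were, and none had an unadjusted p under 0.05, where 7.39% of all features did. The smallest p belonged to Ifi35 (-0.14 ± 0.07, limma adjusted p 0.693) and Stat2 (-0.11 ± 0.06, adjusted p 0.696).

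Of the genes under older names, Ifih1, the RNA sensor MDA5, was higher by 0.12 ± 0.06 in CR males (limma, unadjusted p 0.0463, adjusted p 0.692). Its difference between the sexes was 0.16 ± 0.08 (unadjusted p 0.0478, adjusted p 0.936). Parp14, another ADP-ribosyltransferase, was at -0.17 ± 0.08 in CR females (unadjusted p 0.0462, adjusted p 0.995). Rsad2 encodes viperin, which makes a chain-terminating nucleotide against viral polymerases. It was at 1.01, 0.17, 0.17, -0.72 and -1.96 in CR males, against -2.82, -1.39 and -0.39 (lowest, median and highest) in control males. It was at -1.54, -1.16 and 2.41 in CR females, against -2.11, -0.19 and 1.32 in control females. The top values were those of CR female 5 and control female 4, as for Irf7. In males 3 of 5 CR pups lay above all control pups, and in females the groups overlapped. Rsad2 differed by 1.26 ± 0.70 in males (limma, adjusted p 0.733) and -0.38 ± 0.67 in females (adjusted p 0.996).

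Pups of 1 group differed in these genes. The median within-group SD was 0.219 over the members and 0.137 over all features. Ifit1 had an SD of 1.06, above that of 99.8% of features, and spanned 11.7-fold from control male 2 (-2.22) to control female 4 (1.33). Irf7 (0.444), Irf2 (0.435), Isg20 (0.349) and Bst2 (0.345) followed, and Socs1 had the smallest (0.087). The correlation of a member with the mean of the others ran from -0.526 for Irf2 to 0.572 for Isg15, with a median of 0.202. The median over the members per pup ran from -0.06 to 0.14 in CR males, -0.03 to 0.13 in control males, -0.12 to 0.12 in CR females and 0.03 to 0.13 in control females.

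**Figure D3:**
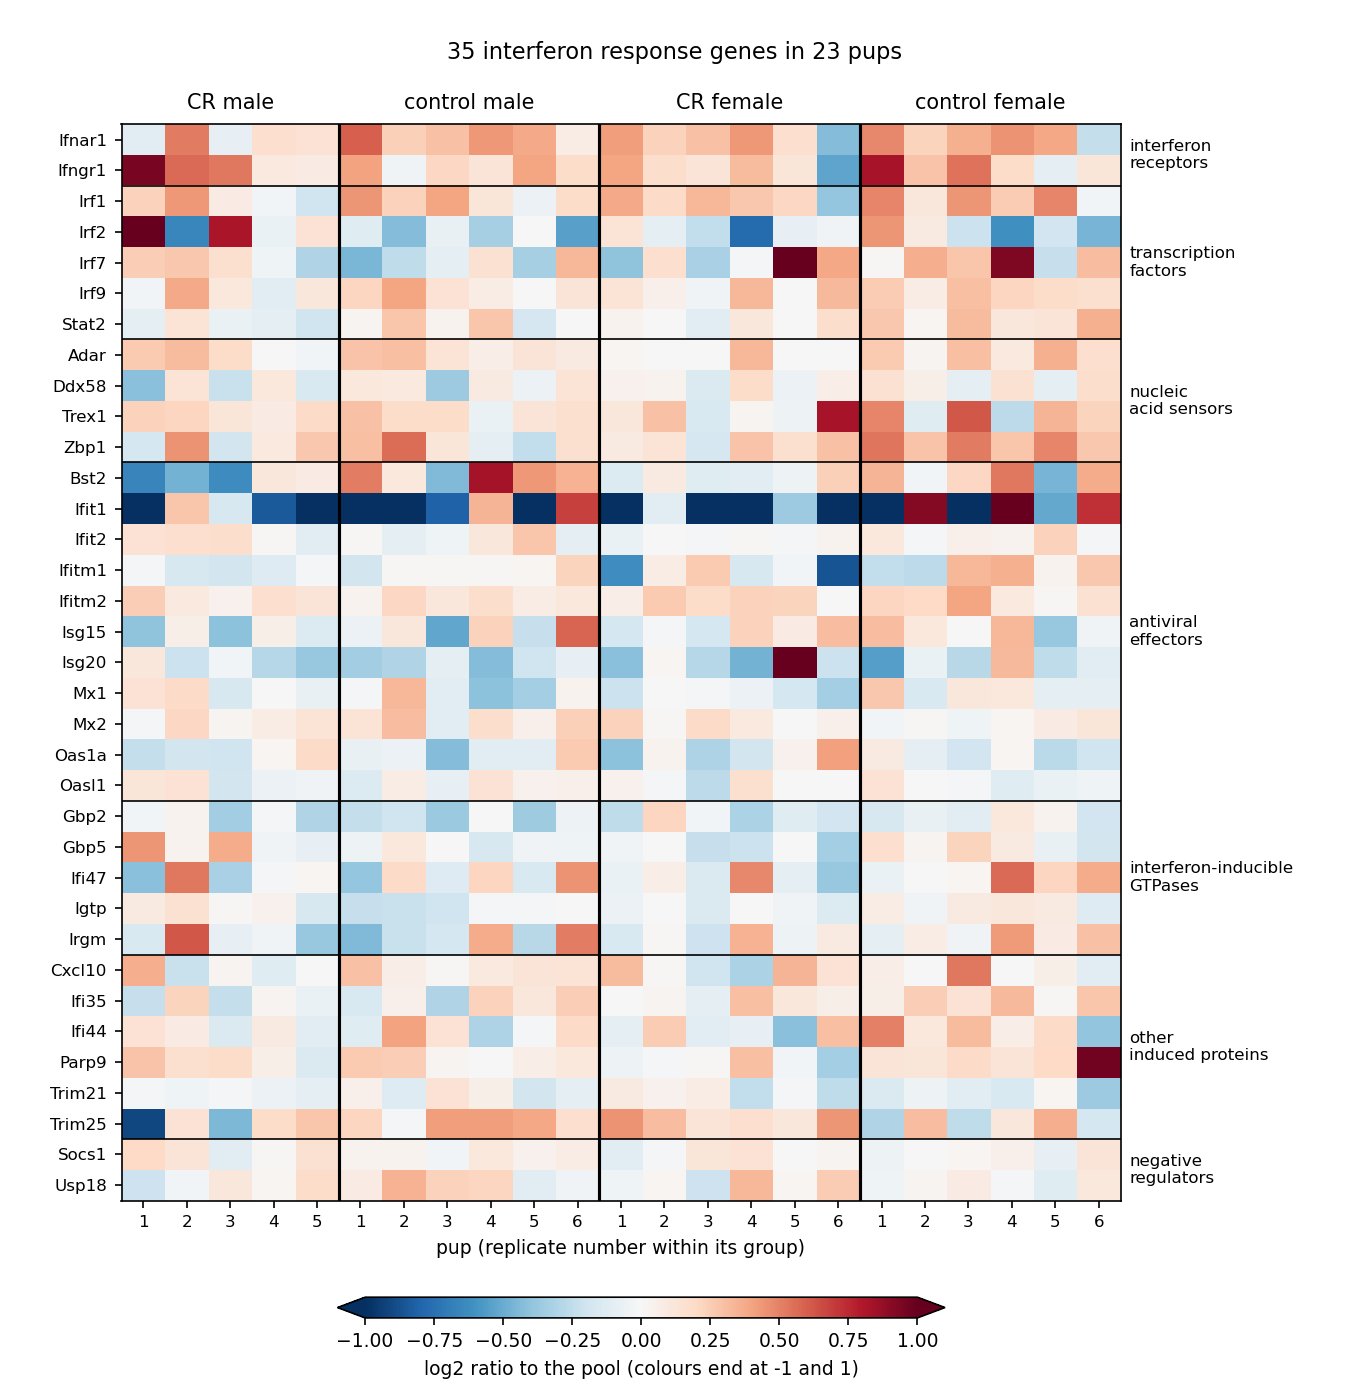
Log2 ratio to the pool of the 35 tested members (rows, by role) in each of 23 pups (columns, by group), red above and blue below the pool, with colours ending at -1 and 1. The Ifit1 row spans -2.22 to 1.33, and single dark cells mark Irf7 and Isg20 in CR female 5 (1.45 and 1.07), Parp9 in control female 6 (0.97) and Irf2 in CR male 1 (1.21).

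Ifit1, Irf7, Isg20 and, of the genes under older names, Rsad2 and Cmpk2 varied with red cell markers. Relations were computed over 23 pups on deviations from group means, for 42 genes with 9 lists of cell type markers (378 relations, p-values by 100000 permutations within groups, two-sided, adjusted over the family). Of these, 8 had an adjusted p of r under 0.05. The red cell list had 8 of 11 genes measured (Hbb, Alas2, Ahsp, Slc4a1, Epb42, Ank1, Tfrc and Klf1), and its mean per pup was -1.34 to 0.43 in CR males, -1.72 to -0.07 in control males, -1.08 to 1.62 in CR females and -1.40 to 0.95 in control females.

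Rsad2 followed this mean at r 0.990 and rho 0.983 (both adjusted p 0.00126, permutation, from a raw p of 1e-05, the smallest that these can give). Without the 2 pups farthest from the median of the red cell mean, CR female 5 and control female 4, r was 0.982, and within slides it was 0.991. Its other probe gave 0.941. Of the single markers, r with Rsad2 was 0.991 for Alas2, the first enzyme of erythroid haem synthesis, 0.985 for Hbb, a globin chain, 0.949 for Klf1, an erythroid transcription factor, and 0.208 for Tfrc, the transferrin receptor.

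Cmpk2, a mitochondrial nucleotide kinase whose RefSeq promoter (chr6:48802600-48802899, plus strand, GRCr8) lies near that of Rsad2 on the other strand, gave r 0.950 and rho 0.897 (both adjusted p 0.00126), and r 0.925 without those 2 pups. Irf7 gave r 0.877 and rho 0.866 (both adjusted p 0.00126), and r 0.766 without those 2 pups. Isg20, an exonuclease that degrades single-stranded RNA, gave r 0.859 and rho 0.774 (adjusted p 0.00283 and 0.00661), and r 0.740 without them. Ifit1 gave r 0.755 and rho 0.759 (adjusted p 0.00441 and 0.0170), and r 0.799 without them. Within slides r was 0.951 for Cmpk2, 0.863 for Irf7, 0.855 for Isg20 and 0.704 for Ifit1.

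The red cell markers themselves had diet differences of opposite sign in the sexes, with 7 of 8 higher in CR males (median 0.72) and 7 of 8 lower in CR females (median -0.31), none called. The diet values of Rsad2, Irf7, Cmpk2 and Ifit1 had the same signs, at 1.26, 0.18, 0.26 and 0.07 in males and -0.38, -0.07, -0.21 and -0.94 in females, while Isg20 was higher in both sexes (0.08 and 0.10). With slides as a block the male values were 0.66 for Rsad2 and 0.07 for Cmpk2, and those of Irf7 (-0.01), Ifit1 (-0.38) and Isg20 (-0.07) turned below 0. The part of the red cell markers in these values was not tested.

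Isg20 was at 0.11, -0.21, -0.03, -0.29 and -0.38 in CR males, against -0.43, -0.25 and -0.08 (lowest, median and highest) in control males. It was at -0.47, -0.25 and 1.07 in CR females, against -0.55, -0.18 and 0.32 in control females. The 2 highest pups, CR female 5 and control female 4, were also the 2 highest in the red cell mean. Ifit1 was at -1.42, 0.28, -0.16, -0.84 and -1.86 in CR males, against -2.22, -1.07 and 0.68 in control males. It was at -1.63, -1.39 and -0.11 in CR females, against -2.13, 0.11 and 1.33 in control females. Each group held pups far apart, and the groups overlapped. Isg20 differed by 0.08 ± 0.20 in males and 0.10 ± 0.19 in females, and Ifit1 by 0.07 ± 0.59 in males and -0.94 ± 0.57 in females (limma, adjusted p of 0.956, 0.996, 0.989 and 0.995 in this order).

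The Ifit1 probe is uncertain. The probe used (A_44_P768625, rn4 chr1:238580038-238580097) is named only as a predicted Ifit1, and it followed a neighbouring predicted Ifit1 probe at r 0.930. It followed the probe for the RefSeq transcript NM_020096, which lies elsewhere on the chromosome (rn4 chr1:238610083-238610142), at r 0.265. The Ifit genes are a family of close copies, so which member this signal belongs to is unknown.

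**Figure D4:**
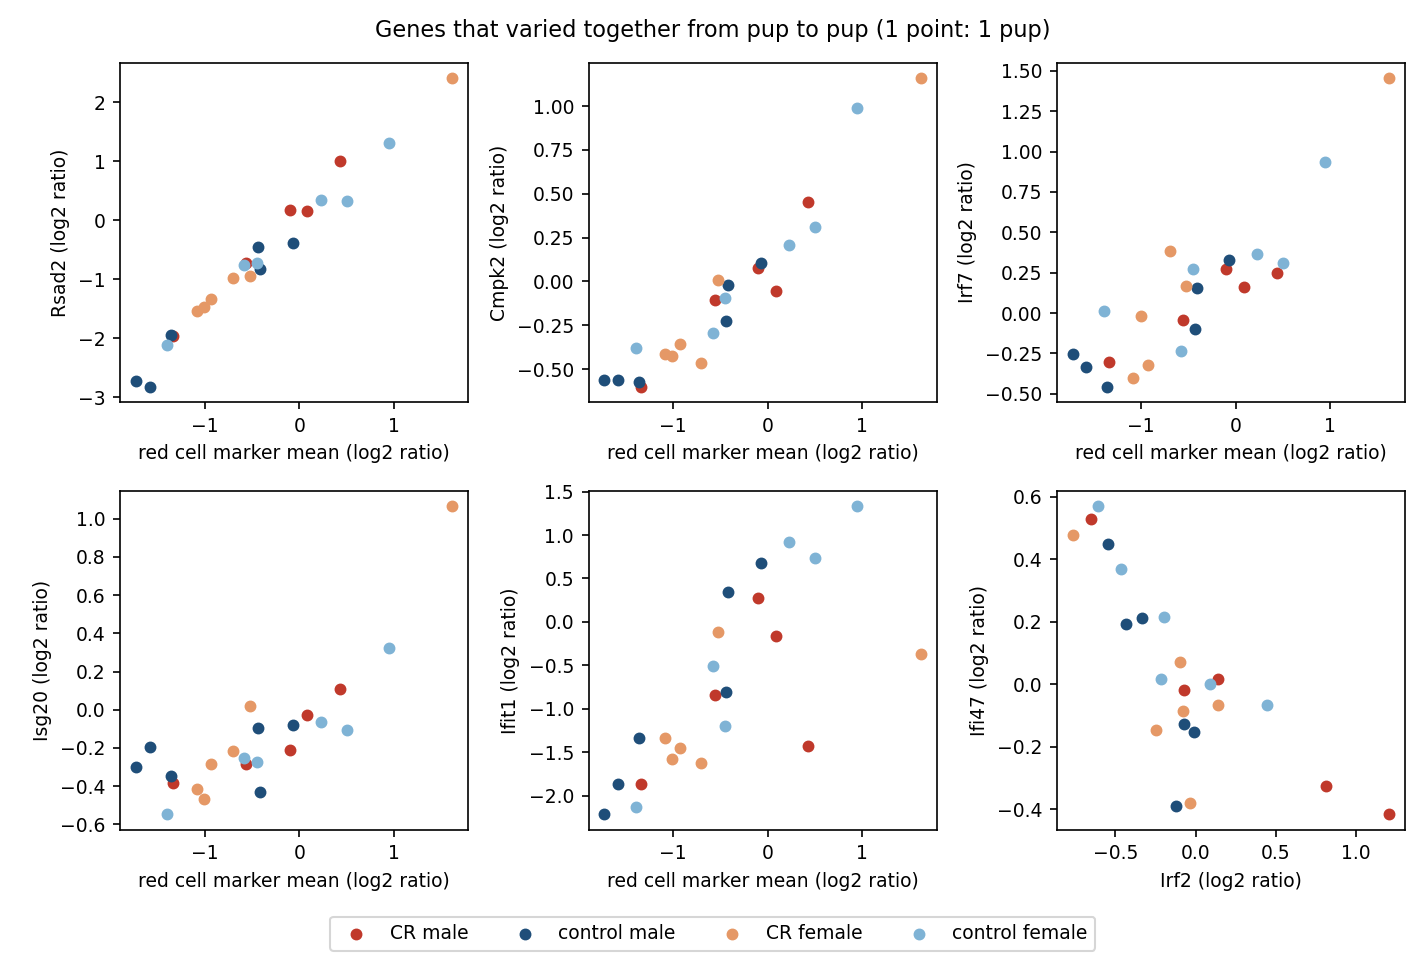
Each point is 1 pup, coloured by group, with log2 ratios to the pool on both axes: Rsad2, Cmpk2, Irf7, Isg20 and Ifit1 against the mean of 8 red cell markers, and Ifi47 against Irf2. Rsad2 lies close to a line (r 0.990 on deviations from group means), Ifit1 scatters more (0.755), and Ifi47 is lower where Irf2 is higher (-0.843).

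Other relations tied members to other cell markers or to each other. Ifi47, an immunity-related GTPase, followed the mean of Batf3, Cd1d1 and Ccr7, the 3 measured genes of the conventional dendritic cell list. Its r was 0.716 and its rho 0.685 (adjusted p 0.0221 and 0.0470, permutation). Mx1 followed T cell markers at r 0.659 and rho 0.604 (adjusted p 0.0302 and 0.148), and r was 0.555 without the 2 farthest pups. Oasl1 followed monocyte markers at r 0.771 and rho 0.731, but was above background on only 7 arrays. Of 861 pairs of the 42 genes, 23 had an adjusted p of r under 0.05, 20 of them positive.

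Outside the genes that followed red cell markers, the highest r was that of Ifi47 with Irgm, another immunity-related GTPase (r 0.777, rho 0.652, adjusted p 0.0121 and 0.0947, permutation). Ifi35, an interferon-induced leucine zipper protein, went with Ifi47 (r 0.767), Irgm (0.750), Isg15 (0.747) and Ddx58 (0.747), with adjusted p-values of r from 0.0121 to 0.0240. Isg15 also went with Oas1a, which makes the oligoadenylates that activate RNase L (r 0.735, rho 0.740, adjusted p 0.00947 and 0.0172, permutation). It was paired with Ddx58 too (r 0.767, rho 0.704, adjusted p 0.00947 and 0.0494). The 2 Ddx58 probes followed each other at only r 0.342 within groups, so the Ddx58 pairs are those of the probe used. Irf9 went with Zbp1 (r 0.769, rho 0.739, adjusted p 0.00947 and 0.0258), and within slides r was 0.905. Irf9 and Stat2, partners in ISGF3, gave r 0.647 and rho 0.508 (adjusted p 0.0457 and 0.226). Of the negative pairs, Irf2 went against Ifi47 (r -0.843, rho -0.846, adjusted p 0.00215 and 0.00517) and Ifi35 (r -0.701, rho -0.726, adjusted p 0.0121 and 0.0397). Without CR males 1 and 3, the 2 pups farthest out in Irf2, r was -0.832 for Ifi47 and -0.661 for Ifi35. Irf2 and Ifi47 had opposite relations to the mean of Batf3, Cd1d1 and Ccr7 (r -0.666 and 0.716), whose part in this pair was not tested. The third negative pair was Trim21, a ubiquitin ligase that binds antibody, with Dhx58 (r -0.818, rho -0.826, adjusted p 0.00215 and 0.00517).

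The rest of the pathway was read from a list of 109 genes, of which 71 were tested and none called. With the sexes averaged, 49 of 71 were lower in CR pups (median -0.03), and 10 had an unadjusted p under 0.05 (14.1%), all lower, where 4.87% of all features were lower at that level. In females 45 were lower and 9 had an unadjusted p under 0.05, all lower, where 2.66% of all features were. In males 43 were lower. At that level there were 4 (5.63%), 2 higher and 2 lower, where 7.19% of all features reached it.

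The 8 genes with the smallest p for the mean of the sexes were all lower in CR pups. Ifi30, a thiol reductase that readies antigens for class II molecules, was lowest in p (-0.37 ± 0.09, limma, unadjusted p 0.000575, adjusted p 0.519). Unc93b1, which carries Toll-like receptors to the endosome, was at -0.17 ± 0.07. Tlr7, an endosomal sensor of single-stranded RNA, was at -0.13 ± 0.06, and Irf5, a factor that acts downstream of it, was at -0.28 ± 0.11. Ptpn6, a phosphatase that restrains receptor signalling, was at -0.28 ± 0.10. Tdrd7 (-0.24 ± 0.06), the helicase Helz2 (-0.18 ± 0.07) and the chaperone Daxx (-0.10 ± 0.05) completed the 8, with adjusted p-values of 0.519 to 0.671. Of 9 interferon ligands listed, only Ifng was tested, and it differed by -0.008 ± 0.043 for the mean of the sexes. The others were either not found by name or too dim, and which of these holds for each was not recorded. The B cell markers given above were lower in CR pups too, and their part in these values was not tested.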

How the data were processed

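PBMC RNA of 23 pups was measured on 2-colour Agilent rat arrays. The deposited scanner files hold an intensity per spot and channel, unnormalized, read with version 10.5.1.1 of Agilent Feature Extraction, per the submitters' processing notes. They also hold a log10 ratio normalized by that software and other spot flags, per the file headers. A separate table deposited by the authors gives log2 levels of 22920 of 43379 spots, with a column median of 7.23; its method is not given in the sources used here, and it served as an alternative.

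Intensities were corrected with limma's normexp (offset 50) and loess within arrays and read as log2 Cy5/Cy3, with outlier spots (127 to 427 per array) set missing. Probes were kept if well above background in Cy5 on 50% of the arrays of 1 group (23693 of 41012; 20603 to 24076 above background per array), and the brightest stood for a gene. limma 3.58.1 in R 4.3.3 fitted 4 group means to 20760 features, with Benjamini-Hochberg adjustment at 0.05. Precision is limited by the number of arrays. The fit was tested on simulated data, and other normalizations, filters, blocks, weights and left-out arrays were tried.

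Members, lists and tests were chosen with earlier results of these data known. The names Oasl and Oasl1 were joined as 1 gene after the values were seen. Named are members with an unadjusted p under 0.05 in a comparison, Stat2, Irf7, Irf9, Isg15 and Mx1 in any case (Ifnar2, also due, was not found by name), and at most 8 pathway genes by p for the averaged sexes. Other members and the pairs given were chosen after their values were seen. Array positions are on rn4.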

Additional observations from a re-analysis of the deposited data

Results flagged for a closer look

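In 56 sets of 5 or 6 pups (1 named gene in 1 group), the highest or lowest pup was checked by Dixon's 95% criterion. This criterion weighs the gap to the nearest neighbour and marks about 1 in 20 by chance. It marked 2. Parp9 stood at 0.97 (log2 ratio to the pool) in control female 6, where the group's median was 0.16. Isg20 stood at 1.07 in CR female 5, where the group's median was -0.25; this is also the pup with the highest red cell marker mean (1.62) and the highest Irf7 (1.45) and Rsad2 (2.41).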

How the results depend on the processing

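Of 1550 values of 45 results under 35 alternatives, 1498 kept their direction and side of the threshold, 33 moved and 19 turned round, and no member was called in any of them. Under median centring, which itself shifts the median of all features by -0.19 in males and -0.10 averaged over sex, the median over the members was -0.29 in males, -0.19 for the mean, -0.15 for the difference between the sexes and -0.11 for males minus females. By the scanner software's log ratio the median with the sexes averaged was -0.11, and over probes above background on all arrays the median difference between the sexes was 0.12. Medians that changed sign without being counted as turned were that in males by the scanner software's log ratio (0.018) and that of the difference between the sexes without CR male 2 (-0.006).

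Among the named genes, turned round were Irf7 in males under median centring (-0.23) and with slides as a block (-0.007), and Mx1 in males under median centring (-0.14). Irf7 in females was 0.41 under scale normalization and 0.18 with Cy5 alone. With the sexes averaged, Irf7 was -0.15 under median centring, -0.037 with slides as a block and -0.014 with array weights, and Mx1 was 0.012 with slides as a block and 0.029 with array weights. With single arrays left out, Irf7 ran from -0.32 to 0.064 in females and -0.069 to 0.12 for the mean, Isg15 from -0.10 to 0.042 in females and Mx1 from -0.060 to 0.014 for the mean. The cause was not tested.

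Members at an unadjusted p under 0.05 numbered 12 in males and 10 for the mean under median centring. The share of all features at that level is not given for the settings in this paragraph. These counts therefore describe the processing and are not a result about the members. In males they were 1 with array weights and 2 under scale normalization. Between the diet effects of the sexes they were 5 with the deposited table or with slides as a block. For males minus females they were 3 under scale normalization and 1 with the deposited table or with the mean over probes. With arrays left out they were, in males, 1 without CR male 1 and 2 without control male 2 or CR male 3. In females they were 1 without CR female 1 or control female 3 and 5 without control female 2. For the mean they were 4 without CR male 2 or CR female 4, and for males minus females up to 3 without CR female 3 or CR male 2. Members lower under median centring numbered 31 in males and 24 for the difference between the sexes.

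Replicate numbers were not taken as pairs, since not every same-numbered pair of pups deviated together (r of their deviations from group means -0.238 to 0.328). That r was over 0.1 in 3 of 5 male and 3 of 6 female pairs, and 3 of 5 CR males and 2 of 6 CR females correlated best with their own number. In females all 6 same-numbered pairs shared a slide, so that number and slide cannot be told apart there, while 0 of 5 male pairs did. With replicate number as a block, no member was called. Bst2 was then -0.58 in males (limma, adjusted p 0.582) and -0.38 for the mean (adjusted p 0.534), and Stat2 was -0.14 for the mean. The unadjusted counts were 4 in males, 4 in females, 3 for the mean, 3 for the difference between the sexes and 1 for males minus females. For this block too, the share of all features at that level is not given. Slides were a block too, since 4 of 6 hold all groups. Median Cy5 intensities of the members ran from 51.8 (Oasl1) to 7577 (Ifitm2), and the offset of 50 narrows the folds of the dim ones.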
